A study of Mus musculus with 103 samples.

Results

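The genes of the mitochondrial respiratory chain and ATP synthase were followed in the hippocampus of wild-type and transgenic mice. Members were the rows of the expression table whose symbol begins with Nduf, Sdh, Uqcr, Cox or Atp5 in the numbered subunit series of complexes I to V, or with mt-Nd, mt-Co, mt-Cyt or mt-Atp, and whose mean over the wild-type libraries was at least 1 TPM (the length-scaled transcript abundance that the table holds). Of 48526 rows, 96 met both conditions, 83 encoded in the nucleus and 13 in mitochondrial DNA. The nuclear members comprised 35 of complex I, 4 of complex II, 8 of complex III, 19 of complex IV and 17 of complex V, with Ndufa4 and Ndufa4l2 counted under complex IV. All others were placed by the beginning of their symbol, which need not mean a subunit of that complex. The 7 rows of such a symbol under the minimum were Cox8c and the pseudogenes Atp5k-ps2, Atp5l-ps1, Atp5l-ps2, Atp5l2-ps, Uqcrh-ps1 and Uqcrh-ps2. Every member passed the filter on low values that came before testing.

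RNA came from flash frozen hippocampi of male mice, 1 library a mouse, at 2, 4, 8 or 18 months of age. There were 31 wild-type C57Bl/6J mice (WILD), with 8, 8, 8 and 7 at the 4 ages. TAS10 mice (13 libraries) were hemizygous for a mutant human APP under the neuronal Thy1 promoter, and TAU mice (14) were hemizygous for mutant human MAPT under the Camk2a promoter. A further line that the labels call TPM (14), written here as the TPM line to keep it apart from the unit, was crossed with TAS10 to give mice hemizygous (HET_TASTPM, 16) or homozygous (HO_TASTPM, 15) for the transgenes of both lines. Transgenic groups held 2 to 4 mice at each age. TAS10 at 4 months and TAU at 18 months had 2 each, and TAS10 at 8 months, the TPM line at 4 and 18 months and HO_TASTPM at 18 months had 3 each.

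The respiratory chain is a series of membrane complexes in the inner mitochondrial membrane. Complex I (Nduf genes, NADH dehydrogenase) and complex II (Sdh genes, succinate dehydrogenase) pass electrons to ubiquinone, complex III (Uqcr genes) hands them to cytochrome c, and complex IV (Cox genes) passes them to oxygen, while complex V (Atp5 genes) uses the proton gradient to make ATP. Mitochondrial DNA encodes core subunits of every complex except complex II, and all other subunits are made from nuclear genes and imported. Neurons draw most of their ATP from this pathway.

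Of the differences from wild-type that passed the test, the largest on the log2 scale was that of mt-Nd3, a complex I subunit of mitochondrial DNA (chromosome M, 9459 to 9806, plus strand, GRCm38 with GENCODE M21), which shares its sequence with another row. Gm28438 (chromosome 1, 24612775 to 24613119, minus strand) is a nuclear copy of mt-Nd3. Over 345 aligned bases the copy had 1 difference, T3C, counted from the first base of mt-Nd3, an identity of 99.7%. The first 60 bases of both genes are shown because they hold that difference, the base in capitals:
mt-Nd3, chrM:9459-9518, plus strand: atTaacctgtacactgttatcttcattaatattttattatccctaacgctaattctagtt
Gm28438, chr1:24613060-24613119, minus strand: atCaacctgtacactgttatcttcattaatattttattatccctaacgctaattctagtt
With a single base to tell them apart, reads of these genes can be assigned to either row, and neither value stands for its gene alone.

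In all 15 HO_TASTPM libraries mt-Nd3 lay below every wild-type library, and Gm28438 lay above every wild-type library. The HO_TASTPM libraries held 4770.1, 4796, 7831 and 8859 TPM of mt-Nd3 at 2 months, 3519, 5481, 7334 and 8631 TPM at 4 months, 3529, 3698, 3743 and 7673 TPM at 8 months and 3419, 4111 and 4987 TPM at 18 months. The wild-type libraries held 14879 to 23116 TPM (median 20146), 14768 to 20744 TPM (median 17933), 14164 to 17797 TPM (median 17289) and 15106 to 20432 TPM (median 18591) at the same ages. No HO_TASTPM library overlapped with a wild-type library at any age. Means were 6564 ± 2099 TPM (SD, n = 4) against 19527 ± 2646 (n = 8) at 2 months and 4172 ± 786 TPM (SD, n = 3) against 17852 ± 2198 (n = 7) at 18 months. The log2 difference was -1.62 (SE 0.20, adjusted p = 2.14e-08) at 2 months, -1.62 (SE 0.20, adjusted p = 1.4e-08) at 4 months, -1.90 (SE 0.20, adjusted p = 1.04e-12) at 8 months and -2.10 (SE 0.22, adjusted p = 3e-12) at 18 months, all by limma on log2(TPM + 0.5) with Benjamini-Hochberg adjustment over the 26272 genes tested. The change of this difference from 2 to 18 months did not pass the test, with a log2 value of -0.49 (SE 0.30, adjusted p = 0.391). With the lane number of each library as a covariate the values were -1.66 (adjusted p = 2.1e-07), -1.61 (adjusted p = 8.57e-08), -1.84 (adjusted p = 4.49e-11) and -2.18 (adjusted p = 8.01e-11).

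HET_TASTPM mice lay in the same low range at 8 and 18 months and not before. At 2 months they held 11726, 16143, 17364 and 25858 TPM of mt-Nd3 and at 4 months 13086, 13721, 15629 and 18296 TPM, which overlapped with wild-type. At 8 months the values were 4609, 5198, 5569.5 and 16722 TPM, so that 3 of 4 libraries lay below all wild-type libraries and mouse 478 lay among them. At 18 months all 4 HET_TASTPM libraries, with 3133, 3199, 6320.2 and 7375 TPM, lay below all wild-type libraries. The log2 difference from wild-type was -1.26 (SE 0.20, adjusted p = 6.44e-06) at 8 months and -1.93 (SE 0.20, adjusted p = 6.8e-12) at 18 months, while -0.18 at 2 months and -0.27 at 4 months did not pass (adjusted p = 1 and 0.639). In the TAS10, TPM and TAU lines mt-Nd3 ranged from 14529 to 21718 TPM and passed the test at no age.

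The copy went the opposite way library by library. The 22 libraries with less than 10000 TPM of mt-Nd3 were the 15 HO_TASTPM libraries and 7 of the 8 HET_TASTPM libraries of 8 and 18 months, and none of them exceeded 8859 TPM. The same 22 libraries had at least 8575 TPM of Gm28438. The other 81 libraries had at least 11726 TPM of mt-Nd3 and at most 3790 TPM of Gm28438, and in 33 of the 72 libraries of the other 4 genotypes the copy was under 1 TPM. Mouse 478, the HET_TASTPM library at 8 months with the wild-type level of mt-Nd3, had 508 TPM of Gm28438. No library lay between the clusters.

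**Figure D1:**
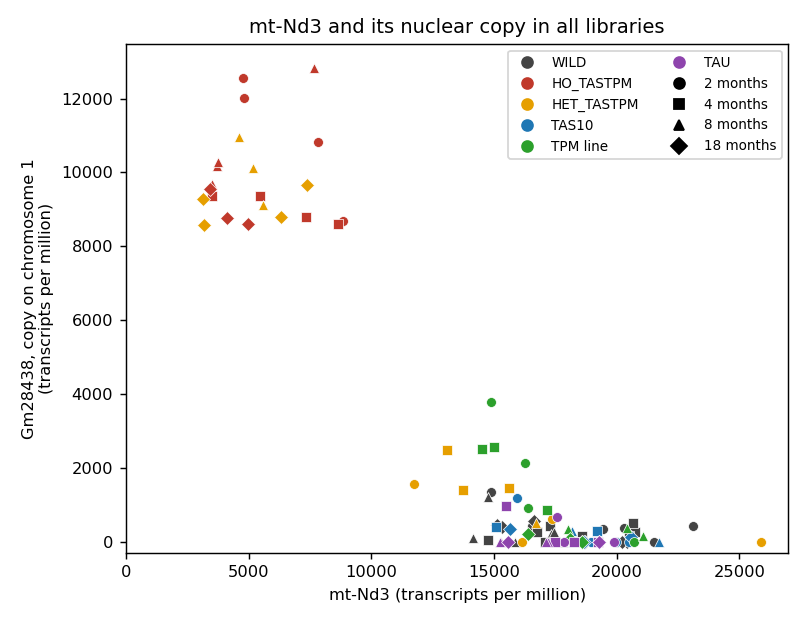
Level of mt-Nd3 (horizontal axis, TPM) against its nuclear copy Gm28438 (vertical axis, TPM), each point 1 library, coloured by line and shaped by age. The 22 libraries at the upper left, with at most 8859 TPM of mt-Nd3, are all HO_TASTPM or HET_TASTPM, and the other 81 lie along the bottom with at most 3790 TPM of the copy.

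The sum of both rows differed far less. It averaged 17588 TPM in HO_TASTPM against 19887 TPM in wild-type at 2 months, 15269 against 18526 at 4 months, 15401 against 16758 at 8 months and 13140 against 18056 at 18 months. Refitted with the copy added, a choice made after the values were seen, mt-Nd3 differed from wild-type by a log2 value of -0.17 (adjusted p = 0.479), -0.28 (adjusted p = 0.0714) and -0.14 (adjusted p = 0.519) at 2, 4 and 8 months. The sum passed the test at 18 months in HO_TASTPM (log2 -0.45, 95% interval -0.69 to -0.21, adjusted p = 0.00707) and HET_TASTPM (log2 -0.37, 95% interval -0.58 to -0.15, adjusted p = 0.0261). Between HO_TASTPM and TAU mice of 18 months mt-Nd3 alone differed by a log2 value of -2.07 (SE 0.30, adjusted p = 4.18e-07) and the sum by -0.40 (adjusted p = 0.109). The share of mt-Nd3 in the sum was 98.5% on average in wild-type and 34.7% in HO_TASTPM (26.4% to 50.5%).

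A further 4 mitochondrial members share sequence with copies in the same stretch of chromosome 1. mt-Co2, mt-Co3 and mt-Atp6, subunits of complexes IV and V, matched Gm28661 over 681 bases, Gm28437 over 783 bases and Gm10925 over 678 bases with no difference. mt-Co1, the catalytic core of complex IV, matched Gm29216 over 492 bases with 6 differences, T1056A, C1057T, A1059G, A1060G, C1062A and A1066T, counted from the first base of mt-Co1. The share of the mitochondrial row in the sum of row and copy ran over the libraries from 32.5% to 87.7% for mt-Co2, 61.0% to 99.9% for mt-Co3, 57.4% to 100.0% for mt-Atp6 and 63.2% to 99.9% for mt-Co1. Values of these members are therefore uncertain below. Beside the changes in mt-Nd3, adding the copy turned mt-Co3 and weakened mt-Atp6 in HO_TASTPM against HET_TASTPM at 8 months, ended the call of mt-Atp6 in wild-type mice of 18 against 2 months and gave one in TAU mice of 18 months, where mt-Atp6 fell by 0.36 on the log2 scale (adjusted p = 0.0272).

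Among wild-type mice every mitochondrial member was more abundant than every nuclear member. Means over the 31 libraries ran from 4083 ± 515 TPM (SD) for mt-Nd5 to 52797 ± 21854 TPM for mt-Atp8, and even mt-Nd5 stood 3.63-fold above the highest nuclear member. The other complex I members of mitochondrial DNA were mt-Nd6 (6212 TPM), mt-Nd4 (9633 TPM), mt-Nd2 (10383 TPM), mt-Nd1 (15864 TPM), mt-Nd3 (18060 TPM) and mt-Nd4l (22121 TPM). mt-Cytb of complex III was at 14150 TPM, the complex IV core subunits mt-Co1, mt-Co2 and mt-Co3 at 28780, 24350 and 29060 TPM, and mt-Atp6 at 17045 TPM. TPM is divided by transcript length, but the level of mt-Atp8 differed with the lane and those of the 5 members with copies leave out the RNA counted under the copies. In each library the mitochondrial members made up 18.4% to 33.7% of all TPM (median 24.5%) and the nuclear members 2.12% to 3.99% (median 2.53%).

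Levels of the nuclear members spread widely within a complex. Complex I ran from Ndufa11 at 30.5 TPM to Ndufb9 at 409 TPM (median 181), complex II from the membrane anchor Sdhc at 50.9 to the flavoprotein Sdha at 198, and complex III from the iron-sulphur protein Uqcrfs1 at 144 to Uqcrh at 951. Complex IV ran from Cox7b2 at 1.06 TPM to Cox6c at 1125 TPM (median 317), and complex V from Atp5s, which is a coupling factor rather than a core subunit, at 26.8 to the catalytic beta subunit Atp5b at 863 (median 391). Of the 83 nuclear members, 71 exceeded 100 TPM and 7 were under 20 TPM. The median coefficient of variation over wild-type libraries was 17.0% for nuclear and 13.8% for mitochondrial members.

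The low members were the tissue-restricted isoforms of complex IV. Cox4i1 stood at 1036 TPM and Cox4i2, the form known from lung, at 2.54 TPM. The forms known from heart and skeletal muscle were low beside their ubiquitous partners, with Cox6a2 at 12.2 TPM against Cox6a1 at 612, Cox7a1 at 7.54 against Cox7a2 at 582 and Cox8b at 5.39 against Cox8a at 1086. Cox6b2, known from testis, was at 14.0 TPM and Cox6b1 at 912, and Ndufa4l2 was at 3.84 TPM and Ndufa4 at 984. Cox7a2l, a supercomplex assembly factor, was at 232 TPM. The Atp5g genes, which encode the same c-ring subunit, were less uneven, with Atp5g3 at 751, Atp5g1 at 303 and Atp5g2 at 141 TPM. Of these, 5 had a coefficient of variation above 50% in wild-type, Cox8b, Cox7b2, Cox6b2, Cox7a1 and Atp5g2, and Cox8b ran from 0 to 47.5 TPM between libraries. Of the low isoforms (Cox4i2, Cox6a2, Cox6b2, Cox7a1, Cox7b2, Cox8b and Ndufa4l2), only Cox6b2 passed in any of the 20 comparisons of a line with wild-type, in TAU mice at 18 months.

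Several members moved with the lane number written in the library names. mt-Atp8, the short complex V subunit of mitochondrial DNA, split the libraries into 49 with 13197 to 48803 TPM and 54 with 56025 to 90526 TPM. Of the 49, 46 carried lane numbers 5 to 8, and of the 54, 53 carried lane numbers 1 to 4. Lane medians of mt-Atp8 were 68057, 62358, 58730 and 64703 TPM in lanes 1 to 4 and 26198, 26348, 21949 and 20002 TPM in lanes 5 to 8. The summed nuclear members had medians between 23443 and 24720 TPM in lanes 1 to 5 and of 29017, 29796 and 30313 TPM in lanes 6, 7 and 8. Among wild-type libraries 71 of 83 nuclear members were higher in lanes 5 to 8 (12 libraries) than in lanes 1 to 4 (19), with a median log2 difference of 0.17. Of the 12 libraries 7 came from mice of 2 months, and of the 19 only 1 did. Lane and age cannot be told apart in this difference. Lane numbers 1 and 2 cover 20 and 19 libraries, more than the 12 a lane held, so a number may stand for several runs. For lane number 2 the library names show it, because some libraries share the same pair of index sequences. The lane number as a covariate does not tell such runs apart.

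**Figure D2:**
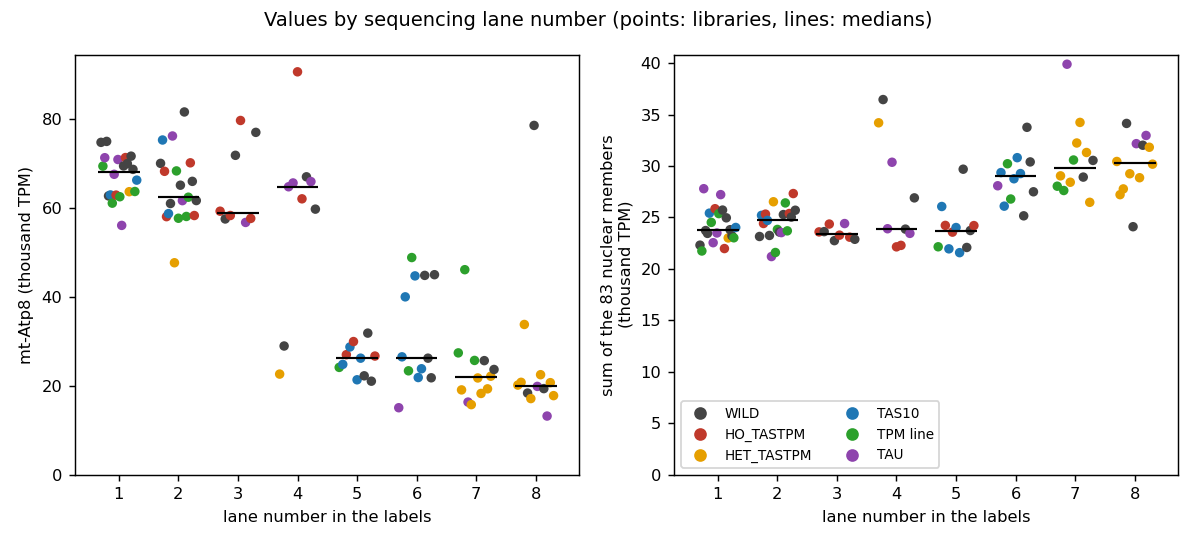
mt-Atp8 and the sum of the 83 nuclear members (vertical axes, TPM) by sequencing lane number (horizontal axis), each point 1 library coloured by line, with lines at the medians. mt-Atp8 drops from medians of at least 58730 TPM in lanes 1 to 4 to at most 26348 TPM in lanes 5 to 8, and the nuclear sum is highest in lanes 6 to 8.

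Lane numbers were spread unevenly over the groups. Of the wild-type libraries of 2 months 7 of 8 carried lane numbers 5 to 8, against 1 of 7 at 18 months, and all HET_TASTPM libraries of 8 and 18 months carried 5 to 8 while all HO_TASTPM libraries of 4, 8 and 18 months carried 1 to 4. Where the groups hardly share lanes, lane and group cannot be told apart within lanes. The counts of nuclear members called are therefore given with the lane number as a covariate too where it changed them by more than 1.5 times. Shares of all genes given below belong to the fit without that term. For the other fits no such share is given here, so their counts do not show whether members passed more often than other genes. By tissue markers, 11 libraries stood apart, with markers of neighbouring brain regions, whose mean log2 level less that of hippocampal neuron markers exceeded 1.5, at 2.10 or more against at most 1.39 in the other libraries. They were 3 HO_TASTPM mice of 4 months, 2 TAU mice of 4 months, 2 wild-type mice of 8 months and 1 mouse each of HO_TASTPM at 2 and 8 months, TAS10 at 2 months and TAU at 2 months. Every library sums to 1000000 TPM, so depth is unknown and a rise in abundant RNAs lowers all others. In bulk tissue fewer cells of a type and less RNA per cell cannot be told apart.

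Over the 20 comparisons of a line with wild-type mice of its age, 52 of 83 nuclear members passed the test in at least 1 and 31 in none. The share of all genes that passed in at least 1 is not given here. The counts therefore do not show whether members passed more often than other genes. Where no nuclear member passed, the count at an unadjusted p under 0.05 is given as well. The share of all genes at that threshold is not given here, and the shares printed are at an adjusted p. Calls fell in 10 of the 20 comparisons, and the count and the direction varied by line and age.

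**Figure D3:**
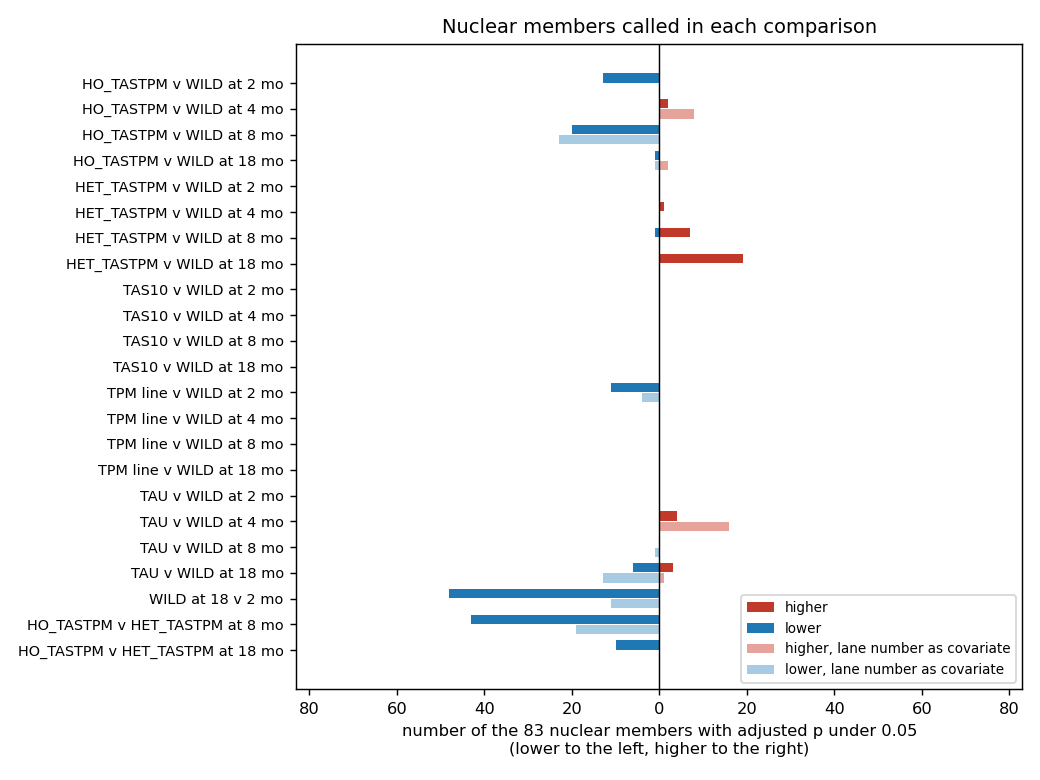
Number of the 83 nuclear members with an adjusted p under 0.05 in each comparison (horizontal axis, lower to the left and higher to the right), in dark bars without and in pale bars with the lane number as a covariate. HO_TASTPM at 8 months has 20 lower members without and 23 with it, 18 of them shared, while those of HET_TASTPM at 18 months go from 19 to 0 and those of WILD at 18 against 2 months from 48 to 11.

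In HO_TASTPM mice of 2 months, 13 nuclear members were lower than in wild-type and none higher, 8 of them in complex I. Over all genes 1.86% passed in either direction and 0.879% were lower. Ndufa7, an accessory subunit of complex I, was at 144, 169, 177 and 177 TPM against 167 to 403 TPM (median 286) in wild-type, with an overlap in the lowest wild-type library, and a log2 difference of -0.76 (SE 0.16, adjusted p = 0.00547). Cox6c of complex IV was at 799, 985, 991 and 1027 TPM, below all wild-type libraries at 1109 to 1672 TPM, with a log2 difference of -0.44 (SE 0.11, adjusted p = 0.0141). Cox7a2 of complex IV was lower by a log2 difference of -0.58 (SE 0.14, adjusted p = 0.0113), Ndufb7 by -0.60 (SE 0.15, adjusted p = 0.0173) and Ndufa6 by -0.55 (SE 0.14, adjusted p = 0.018). Of the mitochondrial members mt-Nd5 was higher, at 4199.8, 4833, 5147 and 5719 TPM against 2991 to 4348 TPM (median 3622), by a log2 value of 0.44 (SE 0.10, adjusted p = 0.0071), as was mt-Nd4l by 0.47 (SE 0.13, adjusted p = 0.0274), and the groups overlapped for both. None of the 83 passed in a fit of only the 2 groups, in lanes 5 to 8 alone or with the lane number as a covariate, where the values were -0.39 (adjusted p = 0.196) for Ndufa7, -0.28 (adjusted p = 0.24) for Cox6c, 0.30 (adjusted p = 0.139) for mt-Nd5 and 0.32 (adjusted p = 0.301) for mt-Nd4l. Short transcripts differed more, with a median log2 difference of -0.36 over the 35 nuclear members under 700 bases and -0.14 over the 47 longer members of known length. Leaving out single mice gave 2 to 23 calls, 2 without HO_TASTPM mouse 967 and 23 without wild-type mouse 2438.

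At 4 months 2 nuclear members were higher in HO_TASTPM and none lower, where 12.7% of all genes passed (9.28% higher, 3.4% lower). Sdhc, which anchors complex II in the membrane, was at 53.9, 61.8, 63.3 and 78.5 TPM against 36.3 to 56.5 TPM (median 50.8) in wild-type, a log2 difference of 0.40 (SE 0.12, adjusted p = 0.0179). Ndufb5, a membrane arm subunit of complex I, was at 183, 183, 232 and 270.3 TPM against 152 to 199 TPM (median 168), a log2 difference of 0.33 (SE 0.11, adjusted p = 0.0418). Both overlapped with wild-type. mt-Nd6, the only light-strand subunit of complex I, was higher by 0.32 (SE 0.10, adjusted p = 0.0177), at 6412, 7422, 8178 and 8385 TPM against 5325 to 6742 TPM (median 6171), with an overlap. Without the libraries set apart, which include 3 of the 4 HO_TASTPM mice, 0 of 83 passed, and the lone mouse is there assumed to vary like the other groups. In the fit with the lane number 8 were higher, and leaving out single mice gave 0 (without mouse 811) to 5 (without mouse 810).

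At 8 months nuclear members were lower in HO_TASTPM mice. The test called 20 of 83 lower and none higher, against 9.08% of all genes in either direction (4.82% higher, 4.26% lower). The 20 comprised 10 of complex I, 2 of complex II, 3 of complex III, none of complex IV and 5 of complex V, and 14 of 19 in complex IV had a negative difference. Complexes were not tested against each other. Of all 83, 75 had a negative difference, with a median of -0.19 on the log2 scale where the median of all genes was -0.01. No mitochondrial member other than mt-Nd3 passed.

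Sdhb, the iron-sulphur subunit of complex II, was at 116, 127, 134 and 146 TPM in HO_TASTPM and at 146 to 185 TPM (median 159) in wild-type mice of 8 months. All 4 HO_TASTPM libraries lay below all 8 wild-type libraries, the highest by a small margin, and the log2 difference was -0.31 (SE 0.06, adjusted p = 5.79e-05). Atp5f1, a stalk subunit of ATP synthase, was at 178, 210.4, 227 and 257 TPM against 255 to 338 TPM (median 275), a log2 difference of -0.38 (SE 0.08, adjusted p = 0.000133) with an overlap of single libraries. Ndufs3, a core subunit of complex I, was at 159.7, 179.7, 183 and 203 TPM against 196 to 237 TPM (median 217), a log2 difference of -0.26 (SE 0.06, adjusted p = 0.000601), also with an overlap. Ndufv1, which binds NADH, was at 113, 124, 129 and 135 TPM, below the 137 to 168 TPM of wild-type, and differed by -0.26 (SE 0.06, adjusted p = 0.0019). Ndufb3 was at 127, 152, 154 and 162 TPM, below the 166 to 271 TPM of wild-type, and differed by -0.45 (SE 0.11, adjusted p = 0.00224). The 15 others called included Atp5c1, Atp5a1, Atp5h and Atp5s of complex V, Ndufa9, Ndufa11, Ndufa12, Ndufb4, Ndufs1 and Ndufv2 of complex I, Sdha of complex II and Uqcrfs1, Uqcrc2 and Uqcrb of complex III, at log2 differences of -0.44 to -0.23.

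The count at 8 months depended on the libraries and on the spread taken into the fit. Of the 20 members 3 passed without the libraries set apart, 5 without HO_TASTPM mouse 452 alone, and none in a fit of only the 2 groups, while 18 passed with the lane number as a covariate (23 in all) and 11 in lanes 1 to 4 alone (13 in all). Sdhb without the libraries set apart differed by -0.26 (adjusted p = 0.00401). Beside these members all 10 microglial markers rose (summed level 1470 to 2272 TPM against 344 to 416 TPM in wild-type, median log2 difference 1.81), as did 4 of 9 astrocyte markers (1647 to 2368 against 853 to 1194 TPM). Of the interneuron markers 4 of 9 fell (750 to 957 against 1268 to 2478 TPM), and of the excitatory neuron markers 1 of 12 (3211 to 6090 against 4935 to 6607 TPM). No marker was at 0 throughout a group, and the part of these cell types in the result was not tested.

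**Figure D4:**
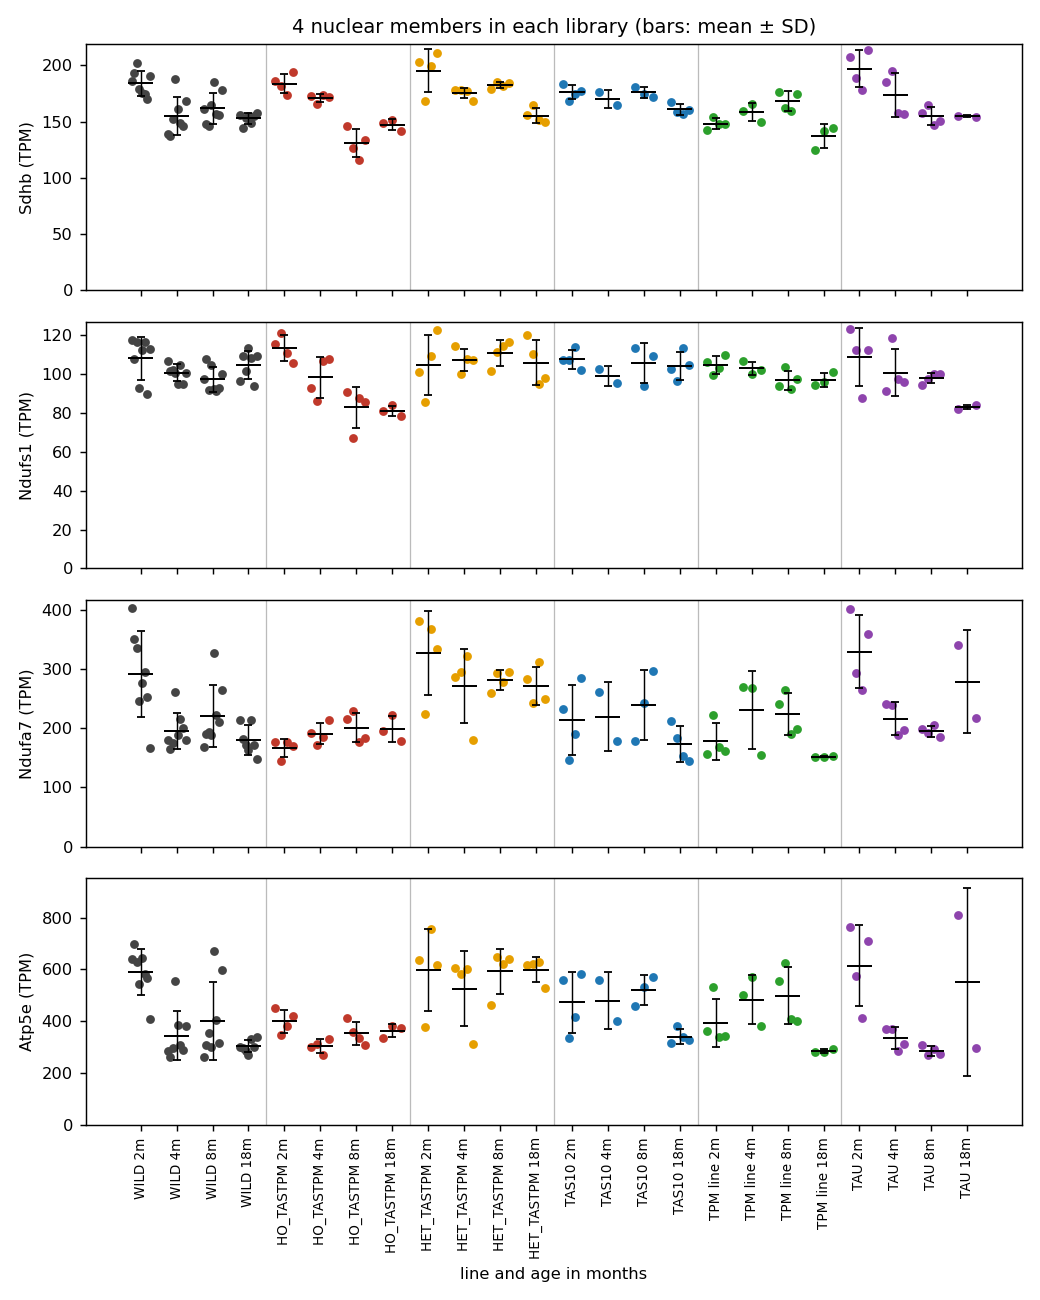
Levels of Sdhb, Ndufs1, Ndufa7 and Atp5e (vertical axes, TPM, from 0) in every library by line and age (horizontal axis), with the mean and SD of each group as bars. Sdhb lies lowest in HO_TASTPM at 8 months, at 116 to 146 TPM, and Ndufs1 at 78.2 to 83.8 TPM in HO_TASTPM of 18 months.

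At 18 months 1 nuclear member was lower in HO_TASTPM and none higher, where 7.83% of all genes passed (6.63% higher, 1.2% lower). Ndufs1, the largest core subunit of complex I, was at 78.2, 80.9 and 83.8 TPM, below all wild-type libraries at 93.9 to 113 TPM, a log2 difference of -0.36 (SE 0.08, adjusted p = 0.00104). All 13 mitochondrial members had negative differences, and besides mt-Nd3 mt-Nd1 passed, at 11630.4, 12342 and 12704 TPM against 13878 to 19979 TPM (median 15563). These did not overlap, with a log2 difference of -0.37 (SE 0.10, adjusted p = 0.0122), which quantile normalization turned to 0.09. With the lane number as a covariate mt-Nd1 was at -0.32 (adjusted p = 0.019), and mt-Nd2 passed as well, at -0.29 (adjusted p = 0.0196). The median over the nuclear members was 0.05 on the log2 scale and turned to -0.03 with quantile normalization, under which 6 nuclear members were lower, and with the lane number as a covariate 2 were higher and 1 lower. All 10 microglial markers (summed level 1813 to 2331 against 418 to 486 TPM in wild-type) and 7 of 9 astrocyte markers rose at this age, and 1 of 12 excitatory neuron markers fell (3771 to 4532 against 5325 to 6747 TPM). None of 20 hippocampal neuron markers (1179 to 1636 against 2357 to 3530.3 TPM) or 9 interneuron markers (965 to 1033 against 1115 to 1495 TPM) passed, and none of these summed levels overlapped with wild-type. Their part in the values of Ndufs1 and mt-Nd1 was not tested.

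Whether the difference from wild-type changed between 2 and 18 months was tested as an interaction. The wild-type libraries of 2 months in it also serve the comparisons of every line at 2 months and of the wild-type ages. These results are therefore not independent of each other. The median log2 value over nuclear members was 0.33 in the HO_TASTPM interaction and -0.31 in wild-type mice of 18 against 2 months. In HO_TASTPM 10 nuclear members had a higher and 1 a lower difference at 18 months, where 6.53% of all genes passed. The shifts were largest in support for Ndufb7, 0.96 (SE 0.23, adjusted p = 0.00241), Ndufa6, 0.86 (SE 0.21, adjusted p = 0.00374), and Ndufa7, 0.91 (SE 0.25, adjusted p = 0.0119), all lower at 2 months, and for the muscle isoform Cox6a2, 1.72 (SE 0.49, adjusted p = 0.0165). Ndufs1 went the opposite way, by -0.44 (SE 0.11, adjusted p = 0.00618). mt-Nd5 shifted by -0.63 (SE 0.15, adjusted p = 0.00224) and mt-Nd1 by -0.48 (SE 0.14, adjusted p = 0.0192), the last turning to 0.0057 with quantile normalization. Of the 11 nuclear members 2 passed with the lane number as a covariate, Ndufb7 at 0.66 (adjusted p = 0.0372) and Ndufa6 at 0.66 (adjusted p = 0.0248), while Ndufa7 was at 0.58 (adjusted p = 0.092) and Ndufs1 at -0.34 (adjusted p = 0.0815), and Cox6a2 did not pass either (adjusted p = 0.0978). In that fit mt-Nd1 passed, at -0.43 (adjusted p = 0.0298), and mt-Nd5 did not, at -0.42 (adjusted p = 0.08). Leaving out single mice gave 4 (without mouse 113) to 18 calls (without wild-type mouse 2438).

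HET_TASTPM mice differed toward higher nuclear members, and those calls did not hold with the lane number in the fit. At 2 months 0 of 83 passed (3 at an unadjusted p under 0.05), with 0.148% of all genes. At 4 months Atp5j2, a membrane subunit of ATP synthase, was higher, at 259, 302, 308 and 316 TPM against 181 to 290.4 TPM (median 206) with an overlap, a log2 difference of 0.45 (SE 0.11, adjusted p = 0.0256), where 0.693% of all genes passed (0.655% higher, 0.0381% lower). At 8 months 7 were higher and 1 lower, where 5.44% of all genes passed (4.12% higher, 1.32% lower). Those of smallest p were Ndufv3 (0.58, adjusted p = 0.00625), Atp5j2 (0.40, 0.0179), Atp5c1 (0.29, 0.0219) and Uqcr11 (0.78, 0.0256). Sdhc was the lower one, at 40.5, 40.5, 43.7 and 45.4 TPM, below all wild-type libraries at 46.7 to 60.3 TPM, a log2 difference of -0.40 (SE 0.12, adjusted p = 0.0333). Quantile normalization gave 1 higher and 3 lower at 8 months, and leaving out single mice gave 0 (without mouse 475) to 19 calls (without wild-type mouse 2418). Of the mitochondrial members mt-Atp8 (-1.46, 0.00493) and mt-Nd4l (-0.45, 0.0195) were lower, and neither passed with the lane number as a covariate.

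At 18 months 19 nuclear members were higher in HET_TASTPM and none lower, against 5.82% of all genes in either direction and 4.67% higher. Atp5e, the epsilon subunit of ATP synthase, was at 527, 619, 620.1 and 629 TPM, above all wild-type libraries at 271 to 339 TPM, a log2 difference of 0.98 (SE 0.19, adjusted p = 0.000306). Atp5b, the catalytic beta subunit, was at 1003, 1075, 1224 and 1281 TPM, above the 660.4 to 945 TPM of wild-type, a log2 difference of 0.64 (SE 0.16, adjusted p = 0.0054). Atp5j2 differed by 0.57 (SE 0.11, adjusted p = 0.000328), Cox7a2l by 0.31 (SE 0.06, adjusted p = 0.000508) and Uqcr11, a small complex III subunit, by 0.93 (SE 0.23, adjusted p = 0.00532), none of them overlapping with wild-type. mt-Atp8 was lower, at 15759, 19069, 22144 and 22486 TPM against 31827 to 76924 TPM, by -1.65 (SE 0.35, adjusted p = 0.000905). All 4 HET_TASTPM libraries carried lane numbers 7 and 8 and no wild-type library of that age did. With the lane number as a covariate 0 of 83 passed, Atp5e was at 0.30 (adjusted p = 0.458) and mt-Atp8 at -0.69 (adjusted p = 0.299), and rescaling without the mitochondrial genes gave 6 higher and 4 lower. All 10 microglial markers (1043 to 1626 against 418 to 486 TPM in wild-type) and 3 of 9 astrocyte markers rose beside them.

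TAS10 mice showed no called member at any age. At 2, 4, 8 and 18 months 0.213%, 0.164%, 0.129% and 0.0571% of all genes passed, and 0 of 83 nuclear and 0 of 13 mitochondrial members, while 0.00761% of all genes were lower at 2 months. At an unadjusted p under 0.05 there were 30 nuclear members at 2 months, all lower, and 2, 9 and 2 at the later ages. These counts cannot be set against the shares of all genes above, which are at an adjusted p. At 2 months 81 of 83 lay below wild-type, with a median log2 difference of -0.18. Without wild-type mouse 2438, 3 members passed at 2 months.

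In the TPM line 11 nuclear members were lower than in wild-type at 2 months and none higher, against 1.14% of all genes in either direction (0.62% higher, 0.521% lower). Sdhb was at 142, 148, 148 and 154 TPM, below all wild-type libraries at 170.1 to 202 TPM, a log2 difference of -0.31 (SE 0.06, adjusted p = 0.00671). Atp5o, a stalk subunit of ATP synthase also known as OSCP, was at 313, 314, 368 and 389.6 TPM, below the 411 to 585 TPM of wild-type, a log2 difference of -0.53 (SE 0.11, adjusted p = 0.0121). The complex I subunits Ndufa8 (-0.33, adjusted p = 0.0207), Ndufa6 (-0.60, 0.021) and Ndufa7 (-0.68, 0.0216) overlapped with wild-type. In a fit of only the 2 groups 0 passed, and with the lane number as a covariate 4 did, Sdhb at -0.28 (adjusted p = 0.0151) and Atp5o at -0.38 (adjusted p = 0.0151) among them. Leaving out single mice gave 1 to 31 calls, 1 without mouse 2374 of the line and 31 without wild-type mouse 2438. At 4, 8 and 18 months 0 of 83 passed (9, 1 and 6 at an unadjusted p under 0.05), with 0.0609%, 0.00381% and 0.0914% of all genes.

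In TAU mice nuclear members passed at 4 and 18 months, in a smaller share than all genes when no lane term was used. With a lane term the share of all genes is not given here, so the 2 cannot be compared. At 2 and 8 months 0 of 83 nuclear members passed (17 and 11 at an unadjusted p under 0.05), with 0.586% (0.544% higher) and 0.735% of all genes, and 1 passed at 8 months with the lane number as a covariate. At 4 months 4 complex I subunits were higher, where 7.46% of all genes passed. Ndufv1 was at 159.7, 163, 165 and 182 TPM, above all wild-type libraries at 134 to 155 TPM, a log2 difference of 0.21 (SE 0.06, adjusted p = 0.0226). Ndufb8 (0.27, adjusted p = 0.0312) and Ndufb10 (0.23, 0.0349) overlapped with wild-type. Without the libraries set apart, 2 of the 4 TAU mice, 0 of 83 passed, and with the lane number as a covariate 16 did.

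At 18 months 3 nuclear members were higher and 6 lower in the 2 TAU mice, where 22.4% of all genes passed. Ndufb9 was at 291 and 331 TPM, below all wild-type libraries at 343 to 417 TPM, a log2 difference of -0.38 (SE 0.10, adjusted p = 0.00198). Ndufv1 was at 114 and 121 TPM, below the 137 to 161 TPM of wild-type, a log2 difference of -0.29 (SE 0.08, adjusted p = 0.00399), and Ndufs1 differed by -0.33 (SE 0.10, adjusted p = 0.00736). The other lower members were Atp5f1, Atp5s and Uqcrc2. Cox6b2, the isoform known from testis, was higher at 33.9 and 80.6 TPM against 10.9 to 52.6 TPM (median 11.9), a log2 difference of 1.73 (SE 0.45, adjusted p = 0.00205) with an overlap. Ndufa7 and Atp5e were higher by 0.60 and 0.69 (adjusted p = 0.0321 and 0.0328), and mt-Nd1 was lower by -0.32 (SE 0.12, adjusted p = 0.0429). All 10 microglial markers (2500 to 4225 against 418 to 486 TPM), 8 of 9 astrocyte markers (4345 to 5066 against 1084 to 1205 TPM) and 3 of 9 oligodendrocyte markers rose, and 3 of 12 excitatory neuron markers fell. Without mouse 1149 none of the 83 passed and without mouse 1150 there were 13 higher and 3 lower, the single mouse then being assumed to vary like the other groups. Quantile normalization gave 3 higher and 11 lower. With the lane number as a covariate 1 was higher and 13 lower, 7 of them among the 9. Ndufb9 was then at -0.37 (adjusted p = 3.13e-05), Ndufv1 at -0.33 (adjusted p = 0.00216), Ndufs1 at -0.36 (adjusted p = 0.00519), Cox6b2 at 1.42 (adjusted p = 0.0263) and mt-Nd1 at -0.39 (adjusted p = 0.00523), while Ndufa7, at 0.33 (adjusted p = 0.211), and Atp5e, at 0.38 (adjusted p = 0.128), did not pass.

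The interaction of TAU with age had 4 nuclear members, all with a lower difference at 18 than at 2 months, where 11.5% of all genes passed. They were Ndufb9 by -0.52 (SE 0.12, adjusted p = 0.00123), Ndufv1 by -0.38 (SE 0.10, adjusted p = 0.00559), Atp5f1 by -0.40 (SE 0.13, adjusted p = 0.022) and Uqcrb of complex III by -0.38 (SE 0.13, adjusted p = 0.0383). All 4 passed with the lane number as a covariate, among 12. Without mouse 1149 1 passed.

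**Figure D5:**
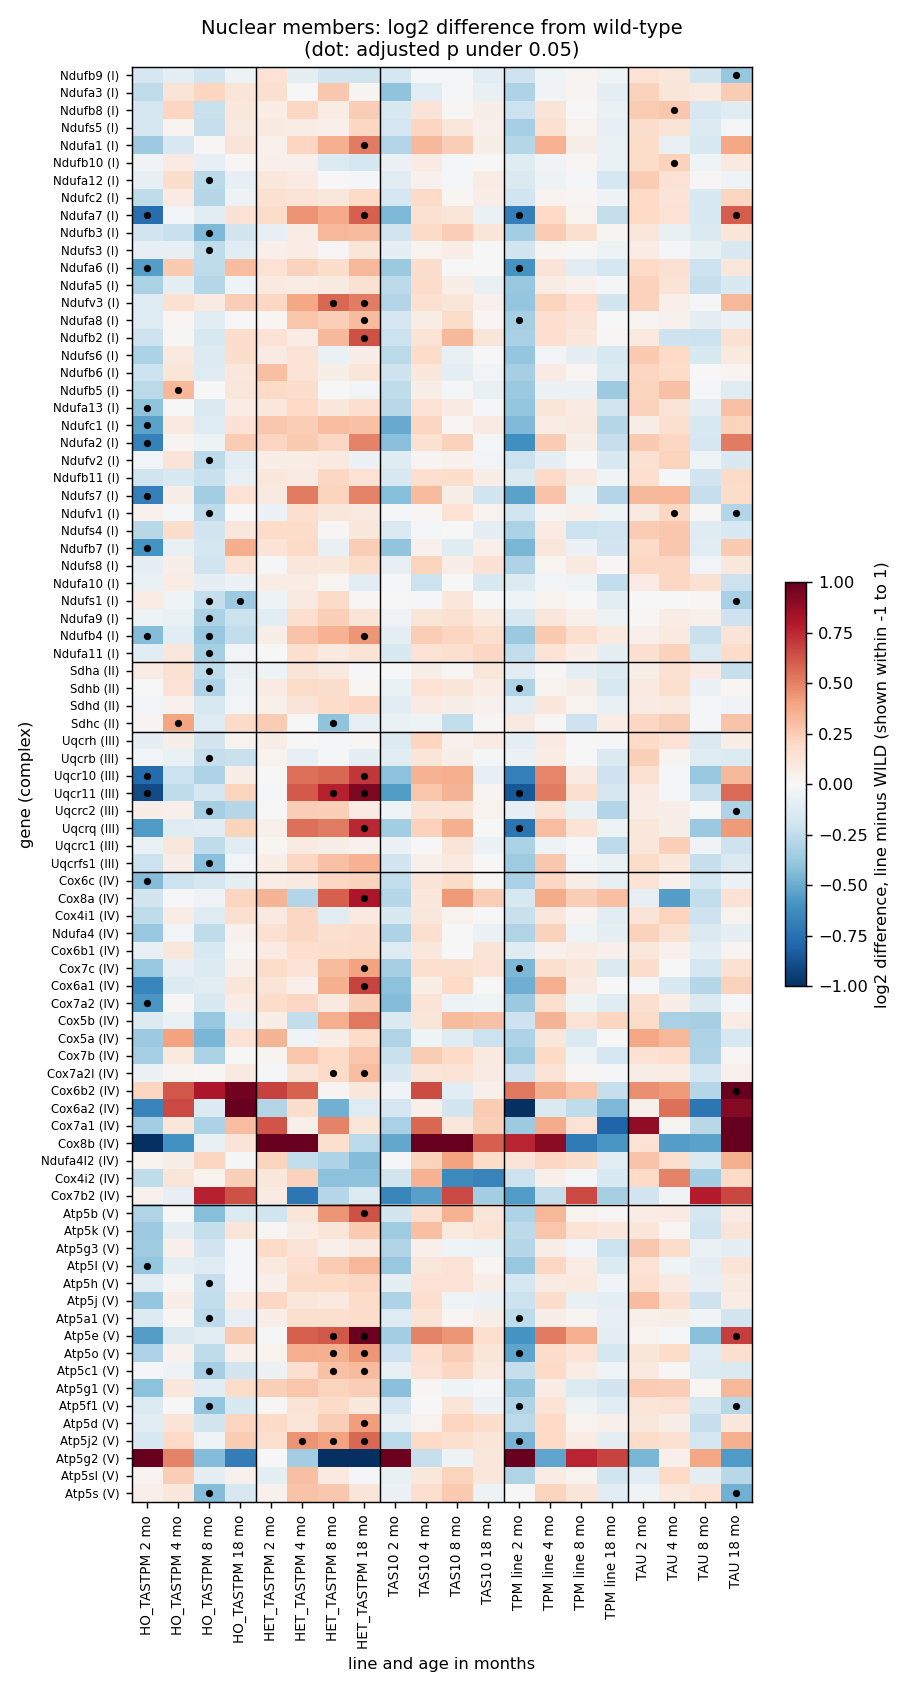
Log2 difference from wild-type mice of the same age (colour, shown within -1 to 1) for 82 nuclear members (rows, by complex and falling wild-type level) in the 5 lines and 4 ages (columns), with a dot where the adjusted p is under 0.05. HO_TASTPM at 8 months is blue in most rows, and no TAS10 column holds a dot.

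Wild-type mice of 18 months had lower nuclear members than those of 2 months. The test called 48 of 83 lower and none higher, against 9.56% of all genes in either direction and 6.16% lower, and 76 of 83 differences were negative with a median log2 value of -0.31. The summed nuclear members were 23174 ± 982 TPM (SD, n = 7) at 18 months and 29889 ± 4343 TPM (n = 8) at 2 months. Atp5o was at 279.9 to 354 TPM (median 334) against 411 to 585 TPM (median 497), with no overlap and a log2 difference of -0.61 (SE 0.09, adjusted p = 5.46e-06). Atp5e was at 271 to 339 TPM (median 301) against 407 to 699 TPM (median 606), also with no overlap, and differed by -0.95 (SE 0.16, adjusted p = 3.12e-05). Sdhb was at 144 to 157 TPM (median 155) against 170.1 to 202 TPM (median 182), with no overlap, and differed by -0.27 (SE 0.05, adjusted p = 0.000144). Atp5j2 differed by -0.57 (SE 0.09, adjusted p = 1.85e-05) and Ndufa8 by -0.38 (SE 0.07, adjusted p = 3.13e-05).

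By complex the lower members were 24 of 35 in complex I, 2 of 4 in complex II, 4 of 8 in complex III, 6 of 19 in complex IV and 12 of 17 in complex V. Of the mitochondrial members 4 were higher and none lower. mt-Atp8 differed by 1.25 (SE 0.29, adjusted p = 0.00217), mt-Nd4l by 0.51 (SE 0.11, adjusted p = 0.000524), mt-Nd5 by 0.29 (SE 0.08, adjusted p = 0.0114) and mt-Atp6 by 0.31 (SE 0.10, adjusted p = 0.0288), the last at 0.14 with its copy Gm10925 added (adjusted p = 0.312). The 2 ages shared few lanes. With the lane number as a covariate 11 of the 48 passed and no other member, 74 of 83 differences stayed negative, and Atp5o was at -0.32 (adjusted p = 0.00707), Atp5e at -0.49 (adjusted p = 0.0141) and Sdhb at -0.18 (adjusted p = 0.0454). Only mt-Nd5, at 0.34 (adjusted p = 0.0153), passed among the mitochondrial members, with mt-Atp8 at 0.45 (adjusted p = 0.321).

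Homozygous and hemizygous TASTPM mice of the same age were compared directly. At 8 months 43 of 83 nuclear members were lower in HO_TASTPM and none higher, against 13.8% of all genes in either direction and 9.12% lower. Sdhb was at 116, 127, 134 and 146 TPM in HO_TASTPM and 179, 182, 185 and 185 TPM in HET_TASTPM, with no overlap and a log2 difference of -0.49 (SE 0.07, adjusted p = 1.42e-07). Atp5c1, the gamma subunit of ATP synthase, was at 225, 270.3, 284 and 295 TPM against 389, 396, 423 and 446 TPM, with no overlap, and differed by -0.62 (SE 0.09, adjusted p = 1.02e-06). Atp5f1 differed by -0.57 (SE 0.09, adjusted p = 1.45e-06), Ndufb3 by -0.78 (SE 0.13, adjusted p = 3.87e-06) and Ndufa9 by -0.56 (SE 0.09, adjusted p = 5.53e-06), none overlapping. All HO_TASTPM libraries carried lane numbers 1 to 4 and all HET_TASTPM libraries 7 and 8, and with the lane number as a covariate 19 of the 43 passed and no other, Sdhb at -0.36 (adjusted p = 0.000468) and Atp5c1 at -0.37 (adjusted p = 0.000703). Cell type markers differed as well. All 10 microglial (1470 to 2272 TPM in HO_TASTPM against 601 to 1093 TPM in HET_TASTPM), 4 of 9 astrocyte (1647 to 2368 against 1080.2 to 1370.2 TPM) and 6 of 7 endothelial markers were higher. Of the interneuron markers 2 of 9 were lower (749.6 to 957 against 1563 to 2129 TPM), of the excitatory neuron markers 1 of 12 (3211 to 6090 against 6166 to 7012 TPM) and of the hippocampal neuron markers 3 of 20 (1429.9 to 2839 against 2640.5 to 3709.9 TPM). Their part in the count was not tested.

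The mitochondrial members differed in both directions at 8 months. mt-Atp8 (1.81, adjusted p = 0.000623), mt-Atp6 (0.60, 0.00066), mt-Nd4l (0.43, 0.0345) and mt-Co3 (0.44, 0.0449) were higher and mt-Nd2 (-0.39, 0.0268) and mt-Nd3 (-0.64, 0.0473) lower. None of the 6 passed with the lane number as a covariate, and with the copies added mt-Co3 was at -0.03 (adjusted p = 0.955), mt-Nd3 at -0.05 (0.912) and mt-Atp6 at 0.32 (0.0385). At 18 months 10 nuclear members were lower in HO_TASTPM, where 6.42% of all genes passed, led by Atp5c1 (-0.49, 0.00137), Ndufb4 (-0.69, 0.00345), Ndufs1 (-0.38, 0.00661), Atp5b (-0.78, 0.00762) and Ndufb3 (-0.50, 0.0162). mt-Nd2 and mt-Cytb were lower by -0.52 (SE 0.14, adjusted p = 0.0126) and -0.45 (SE 0.14, adjusted p = 0.034), and mt-Atp8 higher by 1.57 (SE 0.43, adjusted p = 0.0165). None of these nuclear or mitochondrial members passed with the lane number as a covariate, and 6 of 10 microglial and 3 of 9 astrocyte markers were higher and 3 of 20 hippocampal neuron markers lower. Against TAU mice of 18 months, where 8.07% of all genes passed, 1 nuclear member was higher in HO_TASTPM, Ndufv1 at 134, 143 and 155 TPM against 114 and 121 TPM, with no overlap and a log2 difference of 0.29 (SE 0.09, adjusted p = 0.0362), and with the lane number as a covariate it was at 0.33 (adjusted p = 0.0529).

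Other genes of the pathway were followed beside the members in lists of assembly factors (49 genes), the tricarboxylic acid cycle (17), carriers and cytochrome c (17), expression of mitochondrial DNA (28 tested) and regulators of mitochondrial biogenesis (13). In HO_TASTPM at 8 months, where 4.26% of all genes were lower, 8 assembly factors were lower and 1 higher, with Ndufaf5 (-0.38, adjusted p = 0.00947), Ndufaf7 (-0.29, 0.0237) and Surf1 (-0.27, 0.0259) of smallest p. Of the cycle enzymes 8 were lower and 1 higher. Sucla2, the ATP-forming subunit of succinyl-CoA ligase, was lower (-0.40, adjusted p = 0.000207) and Suclg2, its GTP-forming partner, higher (0.82, 0.000372), with Idh3b lower (-0.28, 0.000562). Of the carriers 11 of 17 were lower and none higher, led by the outer membrane channel Vdac1 (-0.29, adjusted p = 0.000158), the mitochondrial creatine kinase Ckmt1 (-0.48, 0.000672) and the aspartate-glutamate carrier Slc25a12 (-0.31, 0.00228). Of the mitochondrial DNA expression genes 1 was lower, the elongation factor Gfm1 (-0.34, adjusted p = 0.0147). Of the regulators Nfe2l2 was higher (0.99, adjusted p = 8.19e-08) and Sirt3 lower (-0.24, 0.0355), while the median over the list was 0.02. With the lane number as a covariate 6 assembly factors, 8 cycle enzymes and 11 carriers were lower, while Ndufaf7 (-0.21, adjusted p = 0.0796), Gfm1 (-0.28, 0.0606) and Sirt3 (-0.21, 0.0802) did not pass.

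At 18 months the same lists held fewer calls in HO_TASTPM. No assembly factor, carrier or mitochondrial DNA expression gene passed, Suclg2 was higher (0.80, adjusted p = 0.00298), Sucla2 (-0.32, 0.0140) and Dld (-0.31, 0.0289) were lower, and Nfe2l2 was higher (1.24, 3.53e-09). Sucla2 (-0.25, adjusted p = 0.0567) and Dld (-0.29, 0.0598) did not pass with the lane number as a covariate. In TAU mice of 18 months, where 10.5% of all genes were lower, 7 assembly factors were lower and 1 higher, with Ttc19 (-0.64, adjusted p = 0.000239) of smallest p. There 8 cycle enzymes were lower and 1 higher, Suclg2 (1.15, adjusted p = 5.2e-05), and 4 carriers were lower, Ckmt1 by -1.04 (adjusted p = 3.78e-09) and Vdac1 by -0.37 (0.000102), while Nfe2l2 was higher by 2.19 (1.08e-16). The lane number as a covariate gave 10 lower assembly factors, 10 lower cycle enzymes and 6 lower carriers there.

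In HET_TASTPM of 18 months, where 4.67% of all genes were higher, 9 assembly factors, 2 cycle enzymes, 5 carriers and 5 mitochondrial DNA expression genes were higher and none lower, among them Sdhaf2 (0.31, adjusted p = 0.00300), Pdhx (0.31, 0.00897), Cycs (0.43, 0.0159) and Slirp (0.57, 0.000525). None of these calls held with the lane number as a covariate, where these 4 lists had 0 higher and 0 lower and Slirp was at 0.20 (adjusted p = 0.558). In wild-type mice of 18 against 2 months, where 6.16% of all genes were lower, 18 assembly factors, 7 cycle enzymes, 12 carriers and 8 mitochondrial DNA expression genes were lower and none higher, among them Sdhaf2 (-0.39, adjusted p = 4.71e-06), Idh3g (-0.24, 0.000169), cytochrome c itself, Cycs (-0.57, 3.43e-05), and Slirp (-0.51, 0.000188), and no regulator passed. The lane number as a covariate left 1 assembly factor, 2 cycle enzymes, 4 carriers and 2 mitochondrial DNA expression genes lower, with Sdhaf2 at -0.31 (adjusted p = 0.00349), Idh3g at -0.22 (0.00831) and Cycs at -0.32 (0.0181), while Slirp, at -0.23 (0.215), did not pass.

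Promoters of the nuclear members were searched for known motifs. Whether members with a motif were called more often was not tested. A RefSeq promoter of 300 bases, 250 before to 50 after the start (GRCm38.p6), was found for 66 of the 83. Exact motifs were searched on both strands, and no motif contains another. The NRF1 motif, the palindrome in capitals in both promoters printed here, was in 5 of 66 (7.58%) against 1.07% of all 27025 genes with a promoter. The ETS motif CCGGAAG was in 16 (24.2%) against 9.93% and the YY1 motif AAGATGGC in 9 (13.6%) against 3.19%. A gene was counted if any of its promoters matched. The 27025 genes were not chosen by expression, as the members were, and the part of expression in these shares was not tested. GGGCGG, bound by SP1, was in 39.4% against 38.2%, CCAAT in 43.9% against 41.1% and TATAAA in 10.6% against 15.7%. The factors NRF1, the ETS factor GABP and YY1 are known regulators of respiratory genes. Cox6a1 and Uqcrc1 are shown as examples with the NRF1 motif in capitals, and in Cox6a1 the ETS motif on the other strand as well:
Cox6a1, chr5:115348909-115349208, minus strand: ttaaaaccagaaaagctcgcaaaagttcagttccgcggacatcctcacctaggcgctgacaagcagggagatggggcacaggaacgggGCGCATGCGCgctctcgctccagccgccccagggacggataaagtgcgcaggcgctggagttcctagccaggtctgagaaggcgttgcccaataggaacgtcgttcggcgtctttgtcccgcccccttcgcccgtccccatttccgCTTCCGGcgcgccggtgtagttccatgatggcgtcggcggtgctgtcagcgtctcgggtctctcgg
Uqcrc1, chr9:108936398-108936697, plus strand: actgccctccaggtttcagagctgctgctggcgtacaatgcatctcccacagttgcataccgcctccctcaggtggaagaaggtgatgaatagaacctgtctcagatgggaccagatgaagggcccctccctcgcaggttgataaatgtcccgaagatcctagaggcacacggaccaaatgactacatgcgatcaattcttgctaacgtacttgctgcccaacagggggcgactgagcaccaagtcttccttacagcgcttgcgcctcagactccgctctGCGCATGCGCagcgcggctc
A match describes these letters and not a bound site.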

How the data were processed

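Expression was measured by strand-specific, poly(A)-selected RNA sequencing of hippocampi. The deposited values are TPM per gene; per the labels the submitters' processing notes name Trim Galore, Salmon and GRCm38, without versions here, and the authors gave no counts, so the depth of a library is unknown and counting error cannot be separated. Genotype and age in the table matched the labels in all libraries. The 26272 genes whose mean reached 0.5 TPM in any of the 24 groups were tested with limma 3.58.1 in R 4.3.3 on log2(TPM + 0.5), with 24 group means, a mean trend and Benjamini-Hochberg adjustment within each of 26 comparisons at 0.05; a fold change on this scale understates low genes. Standard errors pool the spread of all groups. Replicates are separate mice. The text names all mitochondrial members, per comparison the 5 nuclear members of smallest p and any called against the majority, the highest and lowest per complex, isoform families, and 3 genes of each other list. Members and lists were chosen with earlier results of these data known. Alternatives were other pseudocounts, filters, scalings, lane terms, fits of the compared groups alone and left-out libraries. Mice were left out 1 at a time, except that wild-type mice of 2 and 4 months were left out in pairs, 1 of each age. The test was also run on simulated data with noise independent between genes and no effect of lane or tissue. That run cannot show how lane or tissue bear on the counts. Tables were handled with pandas 2.3.3 in Python 3.11.15. Promoters came from RefSeq. A nuclear member, counted throughout, is not reported by name here.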

Additional observations from a re-analysis of the deposited data

Results flagged for a closer look

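Of 72 group and measure combinations, 11 had a library far from the others of its group by Dixon's criterion, where chance gives about 1 in 20. For the summed nuclear members they were wild-type mouse 2338 at 4 months (28926 TPM, others 23154 to 25721), HO_TASTPM mouse 451 at 8 months (25328 TPM, others 21981 to 22292) and TAU mouse 1461 at 8 months (23908 TPM, others 23457 to 23532). For mt-Nd3 they were HO_TASTPM mouse 452 at 8 months (7673 TPM, others 3529 to 3743), HET_TASTPM mouse 478 at 8 months (16722 TPM, others 4609 to 5569.5) and TAU mouse 1809 at 2 months (19879 TPM, others 17575 to 17868).

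For mt-Atp8 they were wild-type mouse 2338 at 4 months (25644 TPM, others 60942 to 69959), wild-type mouse 2155 at 18 months (31827 TPM, others 57470 to 76924), HO_TASTPM mouse 968 at 2 months (62832 TPM, others 26675 to 29929), HET_TASTPM mouse 1106 at 2 months (47633 TPM, others 18273 to 22622) and TAU mouse 1825 at 2 months (56025 TPM, others 13197 to 19856). Mice 2338, 2155, 968 and 1825 were each the only library of their group within lanes 1 to 4 or within lanes 5 to 8. The level of mt-Atp8 split by these lanes.

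The difference from wild-type changed between 2 and 18 months, by the interaction term, in 11 nuclear members in HO_TASTPM and 4 in TAU, and for mt-Nd1 (log2 -0.48) and mt-Nd5 (log2 -0.63) in HO_TASTPM. The shares of all genes are given with the interactions above. Nuclear members passed in a larger share than all genes in HO_TASTPM and in a smaller one in TAU. With the lane number as a covariate 2 of the 11 and all 4 passed, and mt-Nd5 did not (log2 -0.42, adjusted p = 0.08). Gm28438, which is not a member, averaged 10005 TPM over the 15 HO_TASTPM libraries.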

How the results depend on the processing

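No paired analysis was possible because the labels give mice of different groups no shared number. Counts below are of nuclear members called. With pseudocounts of 0.1 and 1 all 26 counts stayed within 1.5 times. Without a filter they were 1 for HO_TASTPM at 4 months, 4 for HET_TASTPM at 8 months and 4 for TAU at 18 months, and with the study's filter 2 for HO_TASTPM at 18 months, 19 for the TPM line at 2 months and 2 for HO_TASTPM against TAU. Quantile normalization gave 5 and 6 for HO_TASTPM at 4 and 18 months, 4 for HET_TASTPM at 8 months, 6 for the TPM line at 2 months, 1 and 14 for TAU at 8 and 18 months, 30 for wild-type age, 22 for HO_TASTPM against HET_TASTPM at 8 months, 0 for HO_TASTPM against TAU and 8 for the TAU interaction. Rescaling without mitochondrial genes gave 1 and 7 for HO_TASTPM at 4 and 18 months, 0, 4 and 10 for HET_TASTPM at 4, 8 and 18 months, 8 and 15 for TAU at 4 and 18 months, 22 for HO_TASTPM against HET_TASTPM at 8 months and 14 for the TAU interaction. The lane number gave 0, 8 and 3 for HO_TASTPM at 2, 4 and 18 months, 0 for HET_TASTPM at 4, 8 and 18 months, 4 for the TPM line at 2 months, 16, 1 and 14 for TAU at 4, 8 and 18 months, 11 for wild-type age, 19 and 0 for HO_TASTPM against HET_TASTPM at 8 and 18 months, and 2 and 12 for the HO_TASTPM and TAU interactions. Fitting only the 2 groups gave 0, 1, 0 and 6 for HO_TASTPM, 0, 1 and 30 for HET_TASTPM at 4, 8 and 18 months, 0 for the TPM line at 2 months, 0 for TAU at 4 months, 25 and 23 for HO_TASTPM against HET_TASTPM and 0 for HO_TASTPM against TAU. Without the libraries set apart there were 0 and 3 for HO_TASTPM at 4 and 8 months, 13 for HET_TASTPM at 8 months, 0 for TAU at 4 months and 18 for the HO_TASTPM interaction.

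Chosen after seeing the data, a term for lanes 1 to 4 against 5 to 8 gave 4 for HO_TASTPM at 4 months, 0, 1 and 2 for HET_TASTPM at 4, 8 and 18 months, 3 for the TPM line at 2 months, 1 for TAU at 8 months, 23 for wild-type age, 20 and 2 for HO_TASTPM against HET_TASTPM, 2 for HO_TASTPM against TAU and 11 for the TAU interaction. Lanes 1 to 4 alone gave 4 and 13 for HO_TASTPM at 4 and 8 months, and lanes 5 to 8 alone 0 for HO_TASTPM at 2 months, 0 for HET_TASTPM at 8 months and 1 for the TPM line at 2 months. The differences that reversed were mt-Nd1 in HO_TASTPM at 18 months (0.0922) and in its interaction (0.0057) with quantile normalization, and mt-Co3 in HO_TASTPM against HET_TASTPM at 8 months (-0.0327) with its copy added; the causes were not tested. Leaving out 1 mouse gave 2 to 23, 0 to 5, 5 to 23 and 1 to 2 for HO_TASTPM by age, 0 to 7, 0 to 19 and 11 to 22 for HET_TASTPM at 4, 8 and 18 months, 0 to 3 for TAS10 at 2 months, 1 to 31 for the TPM line at 2 months, 0 to 1, 0 to 11 and 0 to 16 for TAU at 2, 4 and 18 months, 41 to 54 for wild-type age, 30 to 44 and 3 to 10 for HO_TASTPM against HET_TASTPM, 0 to 4 for HO_TASTPM against TAU, and 4 to 18 and 1 to 9 for the interactions. Wild-type mice of 2 and 4 months were left out in pairs, 1 of each age. Depth is unknown, and several groups held 2 or 3 mice.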
